A study of Homo sapiens with 8 samples.

Results

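The comparison described here adds UNC0642, an inhibitor of the histone methyltransferase G9a, to SP2509, an inhibitor of the histone demethylase LSD1, in Kyse510 cells. Kyse510 is an established human esophageal squamous cell carcinoma (ESCC) line. The members are all genes of the inhibitor expression table with a value of at least 1 FPKM (fragments counted per kilobase of gene length and relative to library size) with SP2509 alone or with both inhibitors. There were 13658 such genes of 31582 in the table, of which 10909 were protein-coding. The other 17924 genes did not pass, including 2944 listed at 0 in both libraries. The members nearest the limit had a larger value of 1.00021 FPKM just inside it and 0.999977 FPKM just outside it.

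The series holds 8 libraries of paired-end 150-base RNA sequencing, 1 for each condition. Kyse510 cells received SP2509 at 7 µM, UNC0642 at 7 µM or both, in each case for 2 days, or vehicle, which the labels call untreated and give no duration. The labels give no separate doses for the cotreatment. The results below set the cotreated library against the SP2509 library, and the vehicle and UNC0642 libraries stand beside them as levels. A comparison from the genetic arm is also used, Kyse510 cells that carry a doxycycline-inducible shG9a hairpin and were selected with puromycin, given Dox for 2 days or left without it (no duration stated). Each side of every comparison is 1 library, so no difference has a replicate check. A ratio of reads is given with a 95% counting interval that covers counting error only and not the spread between cultures.

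LSD1, encoded by KDM1A, removes methyl groups from lysines of histone H3 and works in complexes with CoREST and with NuRD. G9a, encoded by EHMT2, writes the H3K9 methylation that marks silent chromatin, in a complex with its partner GLP. The unfolded protein response is the reaction of cells to misfolded protein in the endoplasmic reticulum (ER). Its ATF6 and IRE1-XBP1 arms raise chaperones of the ER, and its PERK arm raises translation of ATF4, which in turn raises amino acid, redox and CHOP genes. Squamous epithelium renews from TP63-positive basal cells that adhere to a basement membrane, and its upper layers build a cornified envelope of cross-linked proteins.

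Of the 13658 genes, 2469 (18.1%) were at least 2-fold higher with both inhibitors than with SP2509 alone, and 1236 (9.05%) were at least 2-fold lower. These shares are the background for the list counts below. Fold changes are ratios of FPKM + 1, given on the log2 scale, which understates the change of lowly expressed genes. Higher, lower, rose and fell are used below for genes past this 2-fold limit, unless values are given. The median over all genes tested was 0.20 and the quartiles were -0.38 and 0.80. Among 5564 genes that reached 5 FPKM in each of these libraries the median was 0.12, and with this shift taken out 2008 genes rose and 1482 fell. The counting interval of the read ratio excluded 1 for 2313 of the genes that rose and 1036 of those that fell. At a limit of 1.3-fold 66.6% of genes were called, 41.8% up and 24.8% down. Among protein-coding genes 1755 rose (16.1%) and 666 fell (6.11%). Of the genes called, 1094 of the rises passed the FPKM limit in the cotreated library alone, and 549 of the falls passed it in the SP2509 library alone. Among the 10451 genes that passed in both libraries, 1375 rose and 687 fell. In the lists below, rises that passed in the cotreated library alone numbered 51 for genes named LINC, 32 for antisense genes, 10 for cornified genes, 9 for zinc finger genes of chromosome 19 and 5 for histone genes. They numbered 3 each for the ATF4, G1/S, apoptosis, epithelial-mesenchymal, interferon, NF-kB and IGFL lists, 2 each for the heat shock, CDK inhibitor and p53, immediate early, HOX and mitochondrial ribosome lists, 1 for the Notch, Wnt and YAP list and 0 for the others. Falls that passed in the SP2509 library alone numbered 7 for antisense genes and 3 each for genes named LINC and the interferon list. The ID and BMP list had 2, the G2/M, EGF receptor and histone lists 1 each, and the others 0.

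**Figure D1:**
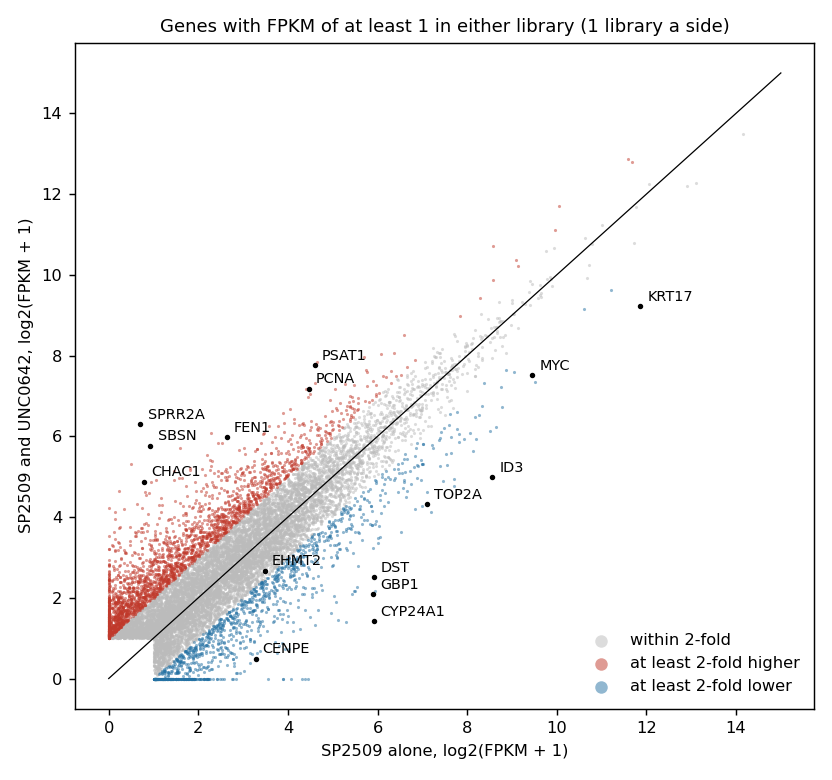
Expression with SP2509 alone (x axis) against SP2509 and UNC0642 (y axis), both as log2(FPKM + 1), for the 13658 genes tested, with 1 library on each axis. Red points are the 2469 genes at least 2-fold higher and blue points the 1236 genes at least 2-fold lower with both inhibitors, grey points lie within 2-fold, the line marks equal values, and the named points are genes given in the text.

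Read totals recovered from the deposited values were 17804295 for SP2509 and 16880224 for the cotreatment, with 15662035 for vehicle and 17889466 for UNC0642. Of 12 squamous epithelial markers, 11 reached 1 FPKM in at least 1 of the libraries compared, and PKP1 did not. Their summed level was 1220 FPKM with vehicle, 1638 with UNC0642, 5235 with SP2509 and 1312 with both. KRT17 alone supplied 3716 FPKM of the SP2509 sum. Without it the sums were 896, 832, 1518 and 718 FPKM in the same order. Fibroblast markers summed to 11.8 FPKM with SP2509 and 7.17 with both (3 of 8 at 1 FPKM or above), endothelial markers to 4.80 and 13.4 (CDH5 alone of 6), leukocyte markers to 0.859 and 3.20 (ITGAM alone of 9), and none of 4 neuroendocrine or 5 columnar markers reached 1 FPKM. In bulk RNA, fewer cells of a kind and less RNA in each cell cannot be told apart, which holds for every level below.

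The targets of both inhibitors were examined first. EHMT2 (ENSG00000204371, chromosome 6, 31879759 to 31897687) was at 11.1 FPKM with vehicle, 10.3 with UNC0642, 10.2 with SP2509 and 5.38 with both inhibitors. The cotreated library was the lowest of the 4, with 662 reads against 1321 with SP2509, a read ratio of 0.529 (95% counting interval 0.481 to 0.581) and a log2 fold change of -0.81, short of 2-fold. KDM1A (ENSG00000004487, chromosome 1, 23019448 to 23083689) was at 40.7 FPKM with vehicle, 40.3 with UNC0642, 36.2 with SP2509 and 32 with both inhibitors, a log2 fold change of -0.17. The inhibitors act on the enzymes, so neither mRNA checks the labels of these libraries. In the shG9a line, where the hairpin targets the mRNA, EHMT2 was at 7.85 FPKM without Dox and 4.76 with Dox, a log2 fold change of -0.62.

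Of 16 genes tested for G9a, its partners, other H3K9 methyltransferases and HP1, 3 rose (18.75%, near the 18.1% of all genes) and 0 fell. Their median of 0.07 lay below that of all genes and turns negative once the general shift of 0.12 is removed. UHRF1, which reads hemimethylated DNA and modified H3K9, was at 8.38 FPKM with vehicle, 16.1 with UNC0642, 5.33 with SP2509 and 17.3 with both inhibitors, so the cotreated and UNC0642 libraries lay together above the other pair. TRIM28, the corepressor KAP1, went from 29.8 to 67 FPKM (vehicle 60.4), and PRDM2 from 2.98 to 7.39 FPKM. SETDB1, the H3K9 methyltransferase recruited by TRIM28, was at 10.05 with SP2509 and 5.25 with both, a log2 fold change of -0.82 that did not reach 2-fold. Among 22 genes tested of LSD1, CoREST and NuRD, 2 rose and 2 fell (median -0.05). The rises were SNAI1, a repressor that recruits LSD1, from 1.63 to 14.5 FPKM, and CHD4, the NuRD remodeler, from 18.7 to 54.3 FPKM beside 56.2 with vehicle. MTA3, a NuRD subunit, fell from 5.81 to 1.66 FPKM and SNAI2 fell from 67.9 to 32.4 FPKM.

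Many genes of the unfolded protein response were higher with both inhibitors than with SP2509 alone. Of 32 ER chaperone and ATF6/XBP1 target genes tested, 12 rose and 1 fell, with a median log2 fold change of 0.82. Of 33 ATF4 and CHOP genes, 19 rose and 1 fell, with a median of 1.14. The same lists had medians of -1.08 and -1.07 for UNC0642 against vehicle, a comparison that shares no library with the former. There 18 and 19 of these genes fell and 0 and 1 rose, beside 3.12% of 13244 genes that fell and 4.79% that rose. Those 13244 genes reached 1 FPKM with vehicle or UNC0642, whereas list members had to reach it in the compared pair. Over the 12101 genes that passed both limits, 2.27% fell and 4.51% rose. Further list counts for UNC0642 against vehicle are also taken over members tested in the compared pair.

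The ER stress response element is the motif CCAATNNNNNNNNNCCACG bound by ATF6 with NF-Y, and it bears on which chaperone genes share a promoter element. In the 250 bases upstream of RefSeq starts (GRCh38.p14, both strands) it was found for 8 of the 29 listed genes tested that have a promoter in the table (27.6%), for 15 of all 8899 tested genes with a promoter (0.169%), and for 25 of 27305 genes in the promoter table (0.0916%). The 8 genes were HSPA5, HSP90B1, CALR, CANX, PDIA6, CRELD2, ERO1B and XBP1. Among genes with a promoter, 3 of 1433 that rose (0.209%) and 0 of 533 that fell held it. Shown are the promoters of the most abundant of these genes and of the one that rose most. They belong to HSPA5 (chr9:125241344-125241593, minus strand), where the element begins 66 bases upstream of the start, and ERO1B (chr1:236281959-236282208, minus strand), where it begins 243 bases upstream, with the element in capitals. Matches on the opposite strand, as in ERO1B, are printed as they stand. A match is a description of the letters and not a site of binding.
HSPA5: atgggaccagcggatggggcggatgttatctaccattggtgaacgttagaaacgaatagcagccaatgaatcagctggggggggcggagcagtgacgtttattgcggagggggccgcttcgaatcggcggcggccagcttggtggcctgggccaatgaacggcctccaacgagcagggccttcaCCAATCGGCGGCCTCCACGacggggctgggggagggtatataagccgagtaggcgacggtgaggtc
ERO1B: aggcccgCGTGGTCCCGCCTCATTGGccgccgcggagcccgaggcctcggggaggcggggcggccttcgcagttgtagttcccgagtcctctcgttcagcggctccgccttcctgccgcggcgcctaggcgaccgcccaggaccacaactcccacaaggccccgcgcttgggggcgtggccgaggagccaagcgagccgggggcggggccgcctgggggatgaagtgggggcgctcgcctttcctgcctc

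Levels of the genes with this element differed. HSPA5 (chromosome 9, 125234853 to 125241330), the ER chaperone BiP and the most abundant member, was at 1462 FPKM with vehicle, 251 with UNC0642, 511 with SP2509 and 627 with both inhibitors. Its cotreated level lay between SP2509 and vehicle, and the log2 fold change against SP2509 was 0.3, with 35550 and 41391 reads. ERO1B, an oxidase that drives disulfide formation in the ER, was at 9.74 FPKM with vehicle, 3.03 with UNC0642, 1.94 with SP2509 and 8.62 with both inhibitors and rose by 1.71 on the log2 scale. Its level with both inhibitors was close to that of vehicle. CRELD2 (log2 fold change 1.04) was the only other gene of the list with the element that rose past 2-fold. XBP1 was at 38.5 FPKM with SP2509 and 39.7 with both, and HSP90B1 had a log2 fold change of -0.48.

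The largest rise of this list was that of DNAJB9, an ER cochaperone of BiP. It was at 23.6 FPKM with vehicle, 3.23 with UNC0642, 5.31 with SP2509 and 19.96 with both inhibitors, a log2 fold change of 1.73 over SP2509, and of -2.54 for UNC0642 over vehicle. HERPUD1, of ER-associated degradation, was at 121 FPKM with vehicle, 7.82 with UNC0642, 15.7 with SP2509 and 40.9 with both inhibitors (log2 fold change 1.33). SDF2L1 was at 75.9 FPKM with vehicle, 10.7 with UNC0642, 4.65 with SP2509 and 11.7 with both inhibitors and rose by 1.17. For both, the cotreated level exceeded SP2509 alone and stayed well below vehicle. HYOU1, SEC61B, DNAJB11, DERL1, MANF and P4HB rose by between 1.08 and 1.4 on the log2 scale. Among the sensors, ERN1, which encodes IRE1, was at 4.84 FPKM with vehicle, 1.78 with UNC0642, 1.53 with SP2509 and 4.88 with both inhibitors and rose by 1.22. EIF2AK3, which encodes PERK, was at 3.37 FPKM with SP2509 and 7.7 with both, a log2 fold change of 0.99 just under the limit, and ATF6 had a log2 fold change of -0.32. MBTPS2, the protease that activates ATF6, fell from 4.79 to 1.61 FPKM.

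In the ATF4 arm, CHAC1, an enzyme that degrades glutathione, was at 15.4 FPKM with vehicle, 2.06 with UNC0642, 0.737 with SP2509 and 28.4 with both inhibitors. It was below 1 FPKM only with SP2509, and the cotreated library was the highest of the 4. Its reads numbered 27 with SP2509 and 987 with both, a ratio of 38.6 (95% counting interval 26.3 to 58.8) and a log2 fold change of 4.08. FGF21, a secreted hormone of the stress response, was at 9.64 FPKM with vehicle, 0.469 with UNC0642, 0.0856 with SP2509 and 11.4 with both inhibitors and had 2 and 253 reads in the compared pair, a ratio of 133 (95% counting interval 36.6 to 1108). PSAT1, of serine synthesis, was at 327 FPKM with vehicle, 80.1 with UNC0642, 23.1 with SP2509 and 217 with both inhibitors (log2 fold change 3.17). TRIB3, a pseudokinase target of ATF4 and CHOP, was at 85.4 FPKM with vehicle, 13.8 with UNC0642, 3.75 with SP2509 and 22 with both inhibitors and rose by 2.28. Both of the latter were lowest with SP2509 and remained below vehicle with both inhibitors. WARS, a tRNA synthetase, and STC2, a glycoprotein of calcium and phosphate balance, rose by 2.0 and 1.98 on the log2 scale.

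The transcription factors themselves moved less. ATF4 was at 255 FPKM with vehicle, 186 with UNC0642, 209.9 with SP2509 and 360.1 with both inhibitors, with the cotreated library highest and a log2 fold change of 0.78. DDIT3, which encodes CHOP, was at 70.6 FPKM with vehicle, 5.7 with UNC0642, 17.3 with SP2509 and 22.6 with both inhibitors, a log2 fold change of 0.37, so the cotreated level stayed well under that of vehicle. ATF3 was at 162 with SP2509 and 100.5 with both (log2 fold change -0.69), and PPP1R15A, the phosphatase subunit GADD34, at 289 and 202 (-0.52). DDIT4, an inhibitor of mTORC1, was the single member that fell, from 148 to 53.7 FPKM.

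The motif TGATGNAA, the core of the C/EBP-ATF response element to which ATF4 binds, was found upstream of 4 of the 22 ATF4 and CHOP genes with a promoter in the table (18.2%), against 2.29% of all tested genes and 3.89% of all promoters. Its share was the same, 3.0%, among the genes that rose and among those that fell. The genes were ATF3, CHAC1, CEBPG and FGF21. CHAC1 (chr15:40953221-40953470, plus strand, element 209 bases upstream) and FGF21 (chr19:48755274-48755523, plus strand, element 54 bases upstream) are shown because they had the largest rises of the list, with the element in capitals.
CHAC1: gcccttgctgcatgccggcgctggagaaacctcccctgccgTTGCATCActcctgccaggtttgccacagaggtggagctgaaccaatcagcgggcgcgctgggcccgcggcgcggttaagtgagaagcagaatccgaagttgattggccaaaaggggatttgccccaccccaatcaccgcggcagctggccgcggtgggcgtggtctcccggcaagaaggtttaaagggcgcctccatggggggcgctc
FGF21: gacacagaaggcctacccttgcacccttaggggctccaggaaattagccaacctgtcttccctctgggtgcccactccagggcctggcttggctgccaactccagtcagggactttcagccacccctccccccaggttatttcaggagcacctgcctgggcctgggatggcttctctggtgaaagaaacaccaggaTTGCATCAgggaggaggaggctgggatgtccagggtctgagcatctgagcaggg

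**Figure D2:**
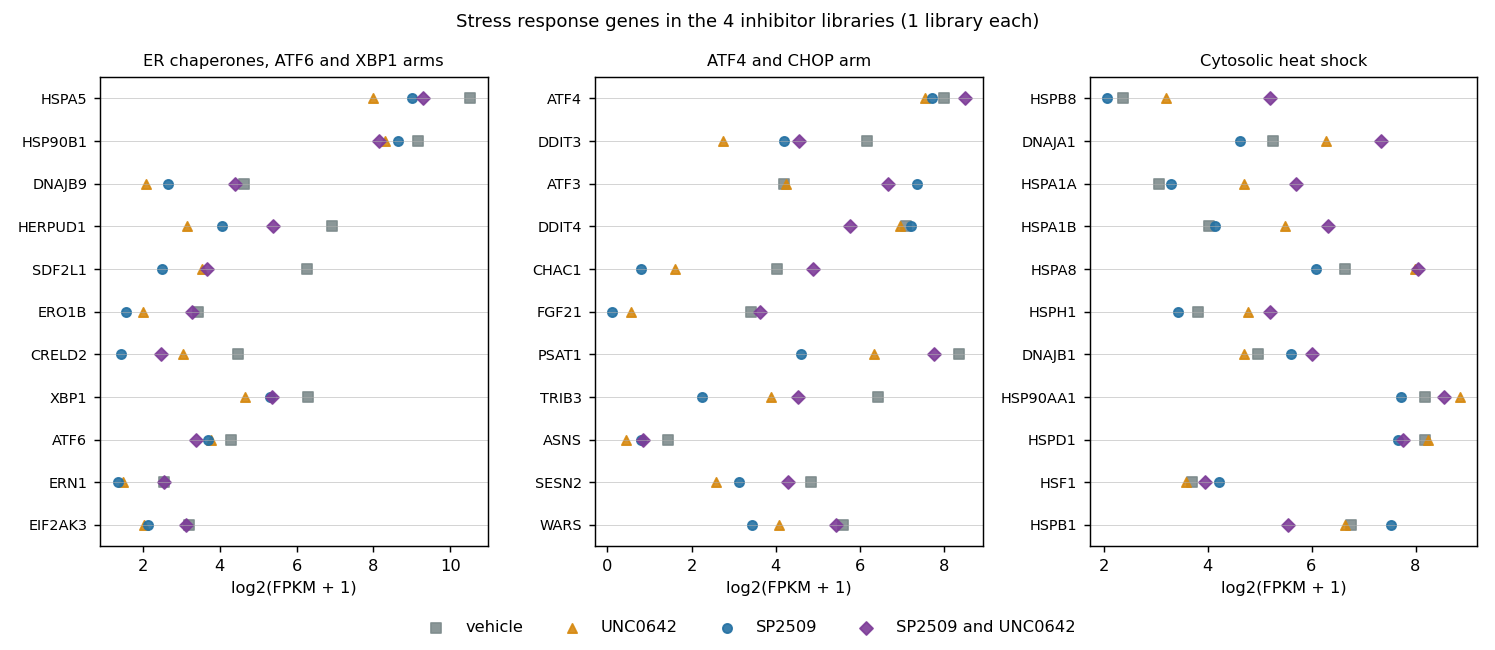
Levels of 33 stress response genes in the 4 inhibitor libraries, as log2(FPKM + 1) on the x axis, with a square for vehicle, a triangle for UNC0642, a circle for SP2509 and a diamond for both inhibitors (1 library each). In the ER and ATF4 panels the diamonds of DNAJB9, ERO1B, CHAC1, FGF21 and PSAT1 lie far to the right of the circles and near the squares, and in the heat shock panel those of HSPB8, DNAJA1, HSPA1A, HSPA1B and HSPH1 lie to the right of all other symbols.

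Cytosolic chaperones also rose. Of 28 heat shock genes tested, 13 rose and 1 fell (median 0.89), and for UNC0642 against vehicle 5 rose and 0 fell (median 0.37). HSPB8, a small heat shock protein that works with BAG3 in selective autophagy, was at 4.17 FPKM with vehicle, 8.21 with UNC0642, 3.2 with SP2509 and 35.6 with both inhibitors. DNAJA1, an HSP40 cochaperone, was at 37.3 FPKM with vehicle, 77.1 with UNC0642, 23.5 with SP2509 and 159.7 with both inhibitors. In each the UNC0642 library was second and the cotreated library first, and the log2 fold changes against SP2509 were 3.12 and 2.71. HSPA1A and HSPA1B, the inducible HSP70 pair, rose by 2.39 and 2.18, but the genes are nearly identical and the counting could have split their reads. HSPA8, the constitutive HSP70, was at 99.4 FPKM with vehicle, 253 with UNC0642, 66.8 with SP2509 and 262 with both inhibitors, a read ratio of 3.92 (95% counting interval 3.81 to 4.04). Its processed pseudogenes could share reads with it. HSPB1, which encodes HSP27, went the other way, at 107 FPKM with vehicle, 99.6 with UNC0642, 184 with SP2509 and 45.9 with both inhibitors, highest with SP2509 and lowest with both.

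The heat shock element, searched as GAA, any pair of bases, TTC, any pair of bases and GAA, was found upstream of 8 of 25 heat shock genes (32%), against 0.416% of the tested genes and 0.557% of all promoters. Its share was 0.279% among all genes that rose, below that of the tested genes, and 0.563% among those that fell. HSPA8 (chr11:123062137-123062386, minus strand) is printed because it was the most abundant of the genes that both rose and held the element, with 2 matches in capitals that begin 230 and 55 bases upstream.
HSPA8: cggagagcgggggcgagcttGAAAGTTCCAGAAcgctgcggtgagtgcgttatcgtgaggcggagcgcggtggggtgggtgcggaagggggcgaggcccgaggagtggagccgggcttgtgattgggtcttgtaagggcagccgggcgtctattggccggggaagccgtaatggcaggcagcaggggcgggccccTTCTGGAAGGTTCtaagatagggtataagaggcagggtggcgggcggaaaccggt

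Proteasome genes also rose. Of 35 proteasome subunit genes tested, 14 rose and 1 fell (median 0.84), or 10 and 2 once the general shift was removed. PSMD3, a lid subunit, was at 34.6 FPKM with vehicle, 44 with UNC0642, 11.4 with SP2509 and 57.2 with both inhibitors, and PSMC4, an ATPase of the base, at 38 FPKM with vehicle, 44 with UNC0642, 19.2 with SP2509 and 79.3 with both inhibitors. In both genes SP2509 was the lowest of the 4 libraries and the cotreatment the highest. PSMB2 and PSMD12 rose by 1.74 and 1.54 on the log2 scale. The 3 immunoproteasome subunits stood apart, with PSMB9 from 15.8 to 6.44 FPKM and log2 fold changes of -0.87 for PSMB8 and -0.91 for PSMB10. Of 24 NRF2 and oxidative stress genes, 10 rose and 1 fell (median 0.72), and 6 rose with the shift removed. HMOX1, heme oxygenase 1, was at 4.09 FPKM with vehicle, 10.1 with UNC0642, 1.07 with SP2509 and 29.2 with both inhibitors, and GCLM, of glutathione synthesis, at 22.2 FPKM with vehicle, 32 with UNC0642, 4.09 with SP2509 and 33.3 with both inhibitors. OSGIN1 and AKR1C1 rose by 2.69 and 1.73, whereas NFE2L2, which encodes NRF2 itself, fell from 53.9 to 24.2 FPKM. Among 36 autophagy and lysosome genes 8 rose (22.2%, near the 18.1% of all genes) and 0 fell (median 0.40). These included GLA, a lysosomal galactosidase (12.6 to 75.8 FPKM), and MAP1LC3B, the autophagosome protein LC3B (12.3 to 51.2 FPKM), with NEU1 and ATP6V0D1 at log2 fold changes of 2.02 and 1.98.

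Cell cycle genes split by phase. Of 50 genes of the G1/S transition and DNA replication, 17 rose and 1 fell (median 0.58), while of 40 genes of G2/M and mitosis 0 rose and 20 fell (median -1.01). For UNC0642 against vehicle the counts were 1 and 0 for the former and 0 and 0 for the latter, with medians of 0.25 and 0.04. Against the shift of all genes, 26 rather than 20 mitotic genes fell.

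FEN1, the flap endonuclease of lagging-strand synthesis, was at 16.2 FPKM with vehicle, 31.8 with UNC0642, 5.19 with SP2509 and 62.1 with both inhibitors, with 229 reads in SP2509 and 2597 in the cotreatment, a ratio of 12 (95% counting interval 10.4 to 13.8). CDC25A, the phosphatase that activates CDK2, was at 4.06 FPKM with vehicle, 6.31 with UNC0642, 1.24 with SP2509 and 16.4 with both inhibitors. Its read ratio was 13.2 (95% counting interval 10.7 to 16.6). CCNE1, cyclin E1, was at 1.0 FPKM with vehicle, 3.46 with UNC0642, 0.308 with SP2509 and 7.64 with both inhibitors, with 14 and 329 reads in the compared pair. PCNA, the sliding clamp, was at 60.2 FPKM with vehicle, 108 with UNC0642, 21.1 with SP2509 and 144 with both inhibitors, and E2F1 at 7.86 FPKM with vehicle, 11 with UNC0642, 5.07 with SP2509 and 30.8 with both inhibitors. In these 5 genes the order of the libraries was the same, with SP2509 lowest, then vehicle, UNC0642 and the cotreatment. CLSPN, an adaptor of the replication checkpoint, and RRM2, of ribonucleotide reductase, rose by 2.32 and 2.26. CDK2 was at 6.82 and 10.1 FPKM (log2 fold change 0.5). CDK6, a G1 kinase, was the only listed gene that fell, from 12 to 3.88 FPKM.

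Among mitotic genes, CENPE, a kinesin of the kinetochore, was at 10.2 FPKM with vehicle, 8.87 with UNC0642, 8.69 with SP2509 and 0.408 with both inhibitors. The first 3 libraries lay close together and the cotreated one far below, with 1461 reads with SP2509 and 65 with both, a ratio of 0.0469 (95% counting interval 0.0360 to 0.0602). TOP2A, the topoisomerase that untangles sister chromatids, was at 100.2 FPKM with vehicle, 101 with UNC0642, 136 with SP2509 and 19 with both inhibitors (log2 fold change -2.78). HMMR, a spindle protein, was at 17.4 FPKM with vehicle, 17.2 with UNC0642, 16.4 with SP2509 and 1.63 with both inhibitors (-2.73), and CCNB2, cyclin B2, at 29.5 FPKM with vehicle, 19 with UNC0642, 31.2 with SP2509 and 5.99 with both inhibitors (-2.2). PLK1, a kinase of mitotic entry, was at 18.8 FPKM with vehicle, 16.1 with UNC0642, 12.2 with SP2509 and 3.71 with both inhibitors, a read ratio of 0.304 (95% counting interval 0.267 to 0.346). CCNB1, cyclin B1, was at 54.3 FPKM with vehicle, 60.3 with UNC0642, 56.5 with SP2509 and 18.4 with both inhibitors, and CENPF and AURKA had log2 fold changes of -2.2 and -1.65. In all of these the cotreated library was the lowest of the 4. Not every gene of the list passed the 2-fold limit. CCNA2, at 38.1 and 19.7 FPKM (-0.92), and MKI67, the Ki-67 antigen, at 15.8 and 13.3 (-0.23), were lower but short of it. MYBL2, CKS2, CCNF and ESPL1 went the other way, with positive values between 0.25 and 0.94.

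The E2F motif, searched as TTTCGCGC or TTTGGCGC, was found upstream of 9 of 42 G1/S genes (21.4%), against 2.01% of the tested genes and 1.2% of all promoters. Its share was 2.44% among all genes that rose and 2.06% among those that fell. The CHR motif TTTGAA, through which mitotic genes are repressed by the DREAM complex, was chosen after the data were seen. It was found upstream of 17 of 33 G2/M genes (51.5%), 12% of the tested genes, 16.1% of all promoters, 9.63% of the genes that rose and 17.8% of those that fell. A 6-base motif occurs often, and no match was tested for use. CDC25A (chr3:48188418-48188667, minus strand, E2F motif 44 bases upstream), CCNB2 (chr15:59104896-59105145, plus strand, CHR 29 bases upstream) and PLK1 (chr16:23678639-23678888, plus strand, CHR 29 bases upstream) are shown as a G1/S gene that rose beside a pair of mitotic genes that fell, with the motifs in capitals.
CDC25A: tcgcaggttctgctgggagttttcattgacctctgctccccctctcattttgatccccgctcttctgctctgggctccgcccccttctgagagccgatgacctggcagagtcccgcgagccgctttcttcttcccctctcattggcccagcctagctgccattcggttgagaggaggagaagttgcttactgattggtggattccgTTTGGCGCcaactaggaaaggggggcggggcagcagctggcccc
CCNB2: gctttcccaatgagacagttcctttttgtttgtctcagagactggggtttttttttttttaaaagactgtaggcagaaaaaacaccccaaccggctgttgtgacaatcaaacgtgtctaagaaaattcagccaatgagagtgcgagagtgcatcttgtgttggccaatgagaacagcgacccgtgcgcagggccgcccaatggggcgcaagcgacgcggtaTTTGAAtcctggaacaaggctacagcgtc
PLK1: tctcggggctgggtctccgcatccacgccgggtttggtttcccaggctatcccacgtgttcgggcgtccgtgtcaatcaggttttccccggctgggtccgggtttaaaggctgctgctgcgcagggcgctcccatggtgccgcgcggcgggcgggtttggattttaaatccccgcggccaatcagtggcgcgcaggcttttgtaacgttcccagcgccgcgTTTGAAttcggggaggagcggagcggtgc

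**Figure D3:**
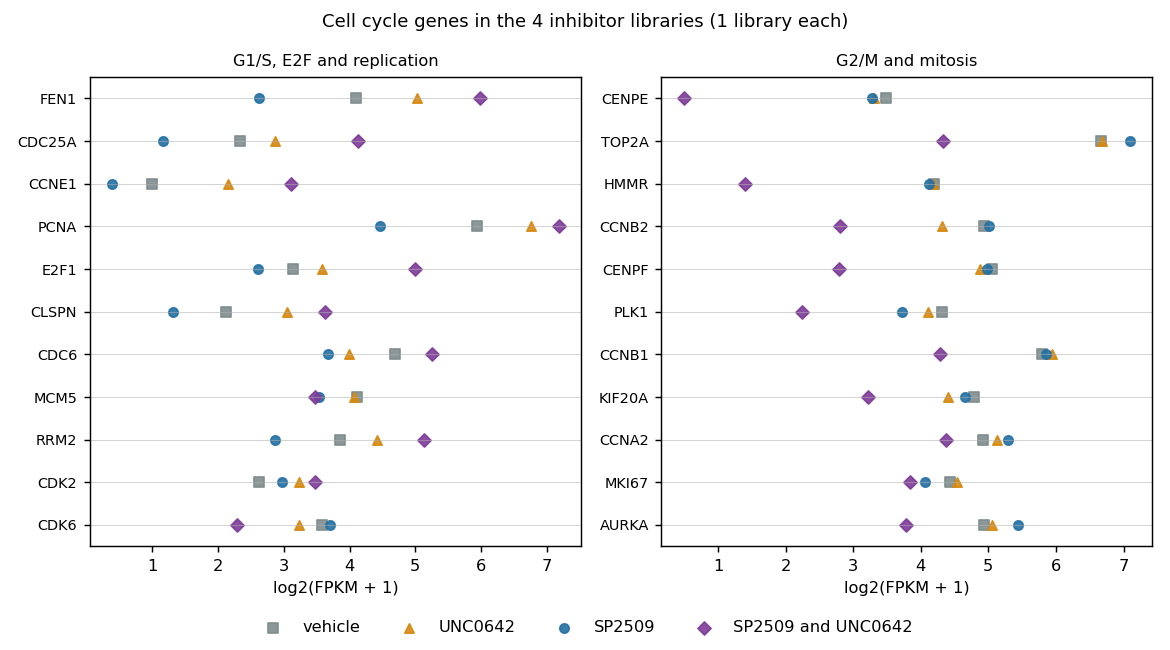
Levels of 11 G1/S and replication genes (left) and 11 G2/M and mitosis genes (right) in the 4 inhibitor libraries, as log2(FPKM + 1), with the symbols of vehicle (square), UNC0642 (triangle), SP2509 (circle) and both inhibitors (diamond), 1 library each. On the left the diamonds of FEN1, CDC25A, CCNE1, PCNA and E2F1 lie rightmost and the circles leftmost, and on the right the diamonds of all 11 genes lie leftmost, MKI67 by a small margin.

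CDK inhibitor and p53 target genes rose in 8 of 27 cases and fell in 2 (4 fell with the shift removed, median 0.48). CDKN1A, the CDK inhibitor p21, was at 10.8 FPKM with vehicle, 38 with UNC0642, 53 with SP2509 and 151 with both inhibitors, so each inhibitor alone lay above vehicle and the cotreatment above both. TIGAR, a regulator of glycolysis, was at 4.04 FPKM with vehicle, 4.66 with UNC0642, 0.671 with SP2509 and 12.3 with both inhibitors, with a read ratio of 18.3 (95% counting interval 13.6 to 25). GADD45G and PPM1D rose by 1.51 and 1.34. GADD45A, a DNA damage and stress gene, was at 30.4 FPKM with vehicle, 23.7 with UNC0642, 226 with SP2509 and 57.5 with both inhibitors and thus fell from a high level in SP2509, and PHLDA3 had a log2 fold change of -1.0.

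Of 39 genes of the BCL2 family, caspases, inhibitors of apoptosis and death receptors, 14 rose and 2 fell (median 0.61). FADD, the adaptor of death receptors, was at 17.3 FPKM with vehicle, 19.1 with UNC0642, 3.94 with SP2509 and 28.3 with both inhibitors, a read ratio of 7.18 (95% counting interval 5.96 to 8.7). CYCS, cytochrome c, was at 70.2 FPKM with vehicle, 79.5 with UNC0642, 20.9 with SP2509 and 125 with both inhibitors. Both were highest in the cotreated library and lowest with SP2509. The proapoptotic BH3 genes BMF and BCL2L11 rose by 1.78 and 1.67, the effector BAX by 1.57, and the death receptor kinase RIPK1 by 1.74. PARP1, a DNA repair enzyme, went from 12.2 to 34.8 FPKM. The falls were BIRC3, an inhibitor of apoptosis induced by NF-kB (34.5 to 9.28 FPKM), and TNFRSF1A, a TNF receptor (-1.18). CASP9, BCL2L1 and XIAP did not reach 2-fold (-0.91, -0.84 and 0.75).

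Squamous genes went both ways. The calls among cornified envelope genes were rises, those among lineage factors and keratins were mixed, and those among adhesion genes were falls. Of 46 genes of the epidermal differentiation complex and related cornified genes in the table, 24 passed the FPKM limit. Of those, 15 rose and 0 fell, but 10 of the 15 passed only in the cotreated library and so had to differ. Of the 14 that passed in both libraries 5 rose. For UNC0642 against vehicle 10 of the 24 rose.

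SPRR2A, a small proline-rich protein cross-linked into the envelope, lies at chromosome 1, 153056113 to 153057537 and was at 0 FPKM with vehicle, 3.07 with UNC0642, 0.634 with SP2509 and 77.8 with both inhibitors. It had 8 reads with SP2509 and 931 with both, a ratio of 123 (95% counting interval 62 to 285) and the largest log2 fold change among protein-coding genes of at least 5 FPKM, 5.59. SBSN, suprabasin, was at 0.354 FPKM with vehicle, 4.95 with UNC0642, 0.905 with SP2509 and 53.6 with both inhibitors, a read ratio of 59.2 (95% counting interval 41.8 to 86.8). LCE3D, a late cornified envelope gene, was at 0.104 FPKM with vehicle, 3.56 with UNC0642, 2.02 with SP2509 and 51.7 with both inhibitors, a read ratio of 25.6 (95% counting interval 16.8 to 41.3). In all 3 the order was vehicle, SP2509, UNC0642 and the cotreatment. ECM1, SPRR1A and LCE3A rose by 3.31, 2.38 and 2.55. SPRR2D went from 3 to 143 reads. SPRR2E had 0 reads with SP2509 and 12 with both, at least 4.22-fold higher against a floor of 3 reads in the SP2509 library. Members of the SPRR2 family are near-identical, so their reads could have been shared. S100A9, a calgranulin, was at 3.98 FPKM with vehicle, 68.6 with UNC0642, 6.04 with SP2509 and 28.3 with both inhibitors, highest with UNC0642 alone. IVL, involucrin, was at 0.297 FPKM with vehicle, 10.4 with UNC0642, 8.45 with SP2509 and 10.3 with both inhibitors and differed little between SP2509, UNC0642 and the cotreatment, and TGM1, the cross-linking enzyme, had a log2 fold change of -0.77.

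The AP-1 motif TGANTCA was found upstream of 9 of the 19 cornified genes tested that have a promoter in the table (47.4%). It was found for 6.62% of the tested genes, 8.06% of all promoters, 8.65% of the genes that rose and 6% of those that fell. The cornified set was partly selected on the rise, since 10 of its 24 tested genes passed the limit in the cotreated library only. Genes with the motif included SPRR2A, SBSN, SPRR1A and ECM1, which rose, and IVL and S100A2, which stayed within 2-fold. SPRR2A (chr1:153057513-153057762, minus strand, motif 197 bases upstream) and SBSN (chr19:35528312-35528561, minus strand, motifs 173 and 71 bases upstream) are printed as the members with the largest rises, with the motif in capitals.
SPRR2A: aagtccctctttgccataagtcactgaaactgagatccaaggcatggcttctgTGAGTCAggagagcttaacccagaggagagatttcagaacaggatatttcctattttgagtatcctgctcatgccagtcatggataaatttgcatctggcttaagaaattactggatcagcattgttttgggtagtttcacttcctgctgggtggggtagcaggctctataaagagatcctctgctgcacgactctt
SBSN: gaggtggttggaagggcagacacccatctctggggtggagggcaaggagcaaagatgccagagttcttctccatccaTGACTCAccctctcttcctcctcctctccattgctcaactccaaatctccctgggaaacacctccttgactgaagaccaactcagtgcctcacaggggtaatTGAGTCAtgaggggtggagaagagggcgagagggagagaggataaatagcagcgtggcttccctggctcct

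Among 33 squamous lineage factors and keratins, 5 rose and 6 fell (median -0.11). TP63, the master regulator of basal squamous cells, was at 79.1 FPKM with vehicle, 62.6 with UNC0642, 127 with SP2509 and 18.3 with both inhibitors, with 16861 reads with SP2509 and 2307 with both, a ratio of 0.144 (95% counting interval 0.138 to 0.151). KRT5, the basal keratin, was at 427 FPKM with vehicle, 303 with UNC0642, 734 with SP2509 and 163 with both inhibitors. KRT17, a keratin of stressed and activated epithelium, was at 324 FPKM with vehicle, 806 with UNC0642, 3716 with SP2509 and 594 with both inhibitors, so its fall of 2.64 on the log2 scale started from a level far above vehicle. TP63 and KRT5 with both inhibitors lay below all other libraries, and KRT17 did not. KRT15, KRT13 and KRT7 had log2 fold changes of -2.64, -2.21 and -1.59. The 5 rises were SOX15, a transcription factor of squamous epithelium (22.2 FPKM with vehicle, 35.8 with UNC0642, 15.5 with SP2509 and 102 with both inhibitors), the suprabasal regulators GRHL3 (1.84) and KLF4 (1.34), and the keratins KRT6B (2.05) and KRT6A (1.17), close paralogs whose reads could have been shared. SOX2, a lineage factor of ESCC, was at 18.3 FPKM with vehicle, 4.94 with UNC0642, 0.313 with SP2509 and 0.636 with both inhibitors, below the limit in the compared pair and so not tested.

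Of 27 desmosome, hemidesmosome and basement membrane genes, 0 rose and 10 fell (12 with the shift removed, median -0.65). DST, the hemidesmosome plakin BPAG1, was at 16.6 FPKM with vehicle, 21.9 with UNC0642, 59.2 with SP2509 and 4.72 with both inhibitors, a read ratio of 0.0796 (95% counting interval 0.0768 to 0.0824). ITGB4, the hemidesmosome integrin, was at 57.7 FPKM with vehicle, 73.7 with UNC0642, 174 with SP2509 and 28.7 with both inhibitors, a read ratio of 0.164 (95% counting interval 0.158 to 0.171). BCAM, a laminin receptor, was at 34.7 FPKM with vehicle, 16.9 with UNC0642, 26.5 with SP2509 and 6.87 with both inhibitors, and LAMB1 at 24.2 FPKM with vehicle, 24.3 with UNC0642, 27 with SP2509 and 8.15 with both inhibitors. The cotreated library was the lowest of the 4 in each. COL17A1, DSG3, DSC3, DSP, PKP2 and LAMA5 also fell, by log2 fold changes of -1.47 to -1.06. DSC2, PLEC and ITGA6 were near their SP2509 levels (0.28, 0.18 and 0.1).

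**Figure D4:**
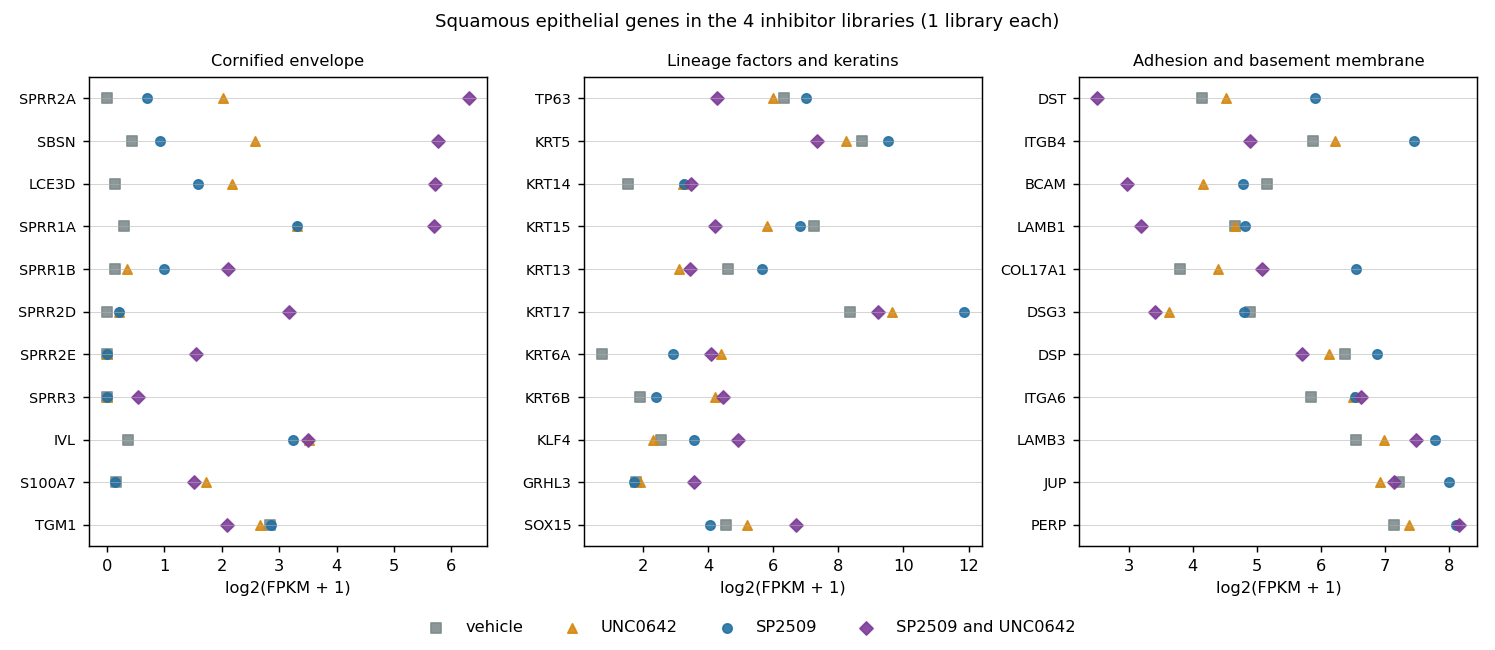
Levels of 11 cornified envelope genes, 11 lineage factors and keratins, and 11 adhesion and basement membrane genes in the 4 inhibitor libraries, as log2(FPKM + 1), with a square for vehicle, a triangle for UNC0642, a circle for SP2509 and a diamond for both inhibitors (1 library each). The diamonds lie far to the right for SPRR2A, SBSN, LCE3D and SPRR1A, and to the left of every other symbol for TP63, KRT5, KRT15, DST, ITGB4, BCAM, LAMB1, DSG3 and DSP.

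Secreted proteases and matrix genes were mixed. Of 27 epithelial-mesenchymal and matrix protease genes, 8 rose and 5 fell (median 0.29). MMP1, a collagenase, was at 0.259 FPKM with vehicle, 2.07 with UNC0642, 0.399 with SP2509 and 12.5 with both inhibitors, and MMP10 rose by 1.68. MMP3 had 3 and 195 reads, a ratio of 68.6 (95% counting interval 23.1 to 335). TGFB2 was at 5.79 FPKM with vehicle, 3.45 with UNC0642, 30.3 with SP2509 and 2.1 with both inhibitors and FN1, fibronectin, at 3.33 FPKM with vehicle, 6.07 with UNC0642, 93.9 with SP2509 and 25.2 with both inhibitors. Both were highest with SP2509, and only TGFB2 lay below vehicle in the cotreatment. TGFBI and THBS1 fell by 1.74 and 1.27 on the log2 scale. Of 16 kallikrein and SERPINB genes 4 rose and 1 fell (median 0.50). The rises were PI3 (2.55) and SLPI (1.31), both antiproteases, and KLK5 and KLK6 (1.44 and 1.39), and SERPINB13 fell (-1.7).

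The ID genes and BMP and TGF-beta feedback genes included 0 rises and 6 falls of 19 tested (median -0.19). Of the 6 falls, 2 passed the limit in the SP2509 library only and so could only be lower. Among the 15 genes that passed in both libraries, 0 rose and 4 fell. ID3, which blocks differentiation by binding E proteins, was at 204 FPKM with vehicle, 91.8 with UNC0642, 376 with SP2509 and 30.6 with both inhibitors, and ID1 at 344 FPKM with vehicle, 364 with UNC0642, 207 with SP2509 and 29.7 with both inhibitors. In both the cotreated library was the lowest of the 4, with read ratios of 0.0814 (95% counting interval 0.0760 to 0.0870) for ID3 and 0.143 (95% counting interval 0.132 to 0.156) for ID1. ID4 was at 28.5 FPKM with vehicle, 3.22 with UNC0642, 18.7 with SP2509 and 3.26 with both inhibitors, low in both libraries with UNC0642, and ID2 had a log2 fold change of 0.95. SMAD9, ATOH8 and SKIL, targets or regulators of these pathways, fell by 1.48, 1.47 and 1.2. Of 29 Notch, Wnt and YAP genes 4 rose and 7 fell (median -0.28). The Notch target NRARP rose from 4.66 to 29.2 FPKM, and DLL4, NOTCH1 and DKK1 by 1.76, 1.33 and 1.03. The ligand JAG1 was at 12.5 FPKM with vehicle, 12.9 with UNC0642, 63.1 with SP2509 and 10.2 with both inhibitors, and DLL1 fell by 2.44. CTGF and CYR61, YAP targets, fell from 277 to 48.6 and from 439 to 105 FPKM, and CTGF stayed above its 5.9 FPKM with vehicle. SFRP2, a secreted Wnt antagonist, was listed at 0 with vehicle and with SP2509 and at 0.204 FPKM with both, under the limit.

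Immediate early and ERK feedback genes numbered 36, of which 7 rose (19.4%, near the 18.1% of all genes) and 3 fell (median 0.26). For UNC0642 against vehicle 15 rose (median 0.77). ARC and EGR3, both near 0 in the other 3 libraries, reached 8.95 and 8.1 FPKM with both inhibitors, from 3 and 9 reads with SP2509 to 452 and 664. ETV5 and SPRY4, targets of ERK signaling, rose by 1.89 and 1.78. MYC was at 137 FPKM with vehicle, 153 with UNC0642, 697 with SP2509 and 182 with both inhibitors, a read ratio of 0.261 (95% counting interval 0.256 to 0.267), and JUNB fell from 266 to 66.4 FPKM, and both stayed above vehicle (JUNB 41.5 FPKM). KLF6 also fell (-1.6), and DUSP1, at 115 and 109.8 FPKM, had a log2 fold change of -0.07. Among 14 EGF receptor family genes and ligands 2 rose and 3 fell (median 0.01). HBEGF, a ligand, was at 2.96 FPKM with vehicle, 13.1 with UNC0642, 10.9 with SP2509 and 75 with both inhibitors and ERBB3 rose by 1.4. EGFR itself was at 37.1 FPKM with vehicle, 34.1 with UNC0642, 70.3 with SP2509 and 23 with both inhibitors, and NRG1 and EPGN fell by 1.69 and 1.4.

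NF-kB targets, cytokines and acute-phase genes went both ways, with 9 rises and 11 falls among 33 (median -0.15). For UNC0642 against vehicle 17 rose and 1 fell (median 1.0). IL11 was at 0.0478 FPKM with vehicle, 0.293 with UNC0642, 0.168 with SP2509 and 24.1 with both inhibitors, a read ratio of 143 (95% counting interval 72.3 to 332). IL36B was at 0 FPKM with vehicle, 2.63 with UNC0642, 0.270 with SP2509 and 17.2 with both inhibitors, and IL23A, a subunit of interleukin 23, at 1.45 FPKM with vehicle, 1.32 with UNC0642, 3.88 with SP2509 and 37.4 with both inhibitors. These cytokines were near or below a few FPKM until both inhibitors were present, and LCN2, lipocalin 2, rose by 1.91. CXCL8 was at 29.1 FPKM with vehicle, 153 with UNC0642, 397 with SP2509 and 74.4 with both inhibitors, and TNFAIP3, the NF-kB inhibitor A20, at 27.9 FPKM with vehicle, 101 with UNC0642, 365 with SP2509 and 68.8 with both inhibitors. CCL20, IL1A and IL1B fell (-1.91, -1.59 and -1.77), and so did the feedback inhibitors NFKBIA (-1.43) and NFKBIZ (-1.18) and the subunit gene NFKB1 (-1.23). In CXCL8 and TNFAIP3 the cotreated level stayed above vehicle. TNF was at 2.98 and 3.57 FPKM.

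Of 39 interferon-stimulated and double-stranded RNA sensing genes 8 rose and 8 fell (20.5% each, beside 18.1% and 9.05% of all genes, median 0.02). Of these, 3 rises passed the limit in the cotreated library only and 3 falls in the SP2509 library only, so their direction was fixed. Among the 33 genes that passed in both libraries, 5 rose and 5 fell. ISG15, a ubiquitin-like modifier, was at 3.12 FPKM with vehicle, 6.76 with UNC0642, 8.23 with SP2509 and 36.9 with both inhibitors, and ISG20 and OAS1 rose by 2.43 and 1.3. RSAD2 went from 1 to 146 reads. GBP1, a guanylate-binding protein induced by interferon gamma, was at 6.18 FPKM with vehicle, 9.31 with UNC0642, 58.5 with SP2509 and 3.24 with both inhibitors, a read ratio of 0.0554 (95% counting interval 0.0488 to 0.0625). GBP2, TLR3 and DDX60 fell, with log2 fold changes of -1.81, -1.75 and -1.66. The membrane restriction factors IFITM1, IFITM2 and IFITM3, close paralogs of each other, all fell (-1.02, -1.87 and -1.32). Among 30 MHC class I, checkpoint and NK ligand genes 4 rose and 3 fell (13.3% and 10%, beside 18.1% and 9.05% of all genes, median 0.06). All 4 rises were NKG2D ligands, RAET1L (1.76 FPKM with vehicle, 4.03 with UNC0642, 7.26 with SP2509 and 45.9 with both inhibitors), ULBP2 (42.4 to 124 FPKM), RAET1G (1.53) and ULBP3 (1.52), a gene family whose reads could partly be shared. The falls were PSMB9 and the peptidases ERAP1 (-1.04) and ERAP2 (-1.15).

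In metabolism, TXNIP, a negative regulator of glucose uptake and thioredoxin, was at 1.18 FPKM with vehicle, 0.848 with UNC0642, 1.98 with SP2509 and 30.3 with both inhibitors, a read ratio of 15.3 (95% counting interval 12.8 to 18.4). In the shG9a line it was at 1.12 FPKM without Dox and 48.9 with Dox. ARRDC4, its close relative, rose from 4.14 to 16.7 FPKM, and these were the 2 rises among 8 genes of this list (median 0.34). Hypoxia and glycolysis genes included 4 rises (ANKRD37, EGLN3, CA12 and VEGFA) and 3 falls of 32 (median 0.01), against 13 rises for UNC0642 over vehicle. The 4 rises and 3 falls were 12.5% and 9.38%, beside 18.1% and 9.05% of all genes. HIF1A was at 123 FPKM with vehicle, 128 with UNC0642, 97.8 with SP2509 and 21.4 with both inhibitors, lowest by far with both, and SLC2A1 and PFKL fell by 1.05 and 1.13. Of 37 cholesterol and fatty acid synthesis genes 3 rose (INSIG1, LPIN1 and ELOVL6) and 0 fell (median -0.15). Among 22 retinoid, polyamine and amine oxidase genes 5 rose and 4 fell (median 0.23), with RDH10, which makes retinal, at 4.73 FPKM with vehicle, 13 with UNC0642, 2.31 with SP2509 and 26.2 with both inhibitors, and SAT1, which acetylates spermine, at 73.3 FPKM with vehicle, 93.9 with UNC0642, 289 with SP2509 and 88.2 with both inhibitors. The retinoid genes CYP26B1 and CRABP2 rose (2.4 and 1.36) and DHRS3 fell (-1.92). Iron genes gave 2 rises, HMOX1 and FTL (1.11), and 2 falls, FBXL5 (-1.43) and SLC11A2 (-1.2), of 15, and metallothioneins 1 rise of 6.

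Of 13 protein genes of the mitochondrial genome 6 rose and 0 fell (median 0.83). MT-CYB was at 2931 FPKM with vehicle, 2275 with UNC0642, 382 with SP2509 and 1665 with both inhibitors, and MT-CO3, MT-CO2 and MT-ND3 rose by 1.65, 1.29 and 1.28. MT-CO1, MT-ND4 and MT-ND4L had values of -0.71, -0.83 and -0.93, so genes cut from the same long transcripts did not move as a block. The mitochondrial chromosome held 6.50% of reads with SP2509 and 5.43% with both. Cytosolic ribosomal protein genes gave 0 calls of 80 (median 0.10, range -0.75 to 0.88), a median that is slightly negative once the shift is removed, and mitochondrial ribosomal protein genes 4 rises of 74 (median 0.16).

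The other chromatin gene lists differed in how many of their members were called. Of 22 Polycomb and DNA methylation genes 2 rose, CBX2 (2.18) and TDG (1.3), and 3 fell, PHC1 (-1.09), TET2 (-1.05) and GADD45A, which the list holds for its link to DNA demethylation (median 0.32). Of 18 JmjC demethylases 4 rose (22.2%, near the 18.1% of all genes) and 2 fell (median 0.20). KDM6A, an H3K27 demethylase, was at 12.4 FPKM with vehicle, 18.3 with UNC0642, 39.2 with SP2509 and 8.12 with both inhibitors, and KDM6B, which acts on the same mark, rose by 1.53. Histone cluster genes numbered 56 in the table and 23 above the limit, with 9 rises and 1 fall (median 0.94). Of the rises 5 passed the limit in the cotreated library only, and HIST1H4H was at 2.15 FPKM with vehicle, 1.71 with UNC0642, 0.779 with SP2509 and 13.4 with both inhibitors. Of 10 HOX genes 4 rose and 0 fell, HOXA5 with a log2 fold change of 1.56 (3.51 FPKM with both). The list median of 0.55 was -0.11 over the 3 genes that reached 5 FPKM. All 4 IGFL cluster genes tested rose, among them IGFL1P1 (3.55 FPKM with vehicle, 18.5 with UNC0642, 0.936 with SP2509 and 28 with both inhibitors) and IGFL1 (0.166 FPKM with vehicle, 0.800 with UNC0642, 0.730 with SP2509 and 13.2 with both inhibitors), and 3 of them passed only in the cotreated library. Zinc finger genes of chromosome 19 gave 10 rises and 5 falls of 101 (median 0.29), or 4 and 7 with the shift removed. Of those 10 rises 9 passed only in the cotreated library. Of the 67 genes that passed in both libraries 1 rose and 5 fell, and the median over the 24 genes that reached 5 FPKM was -0.14. A single clustered protocadherin gene of 40 passed the limit, with no call.

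**Figure D5:**
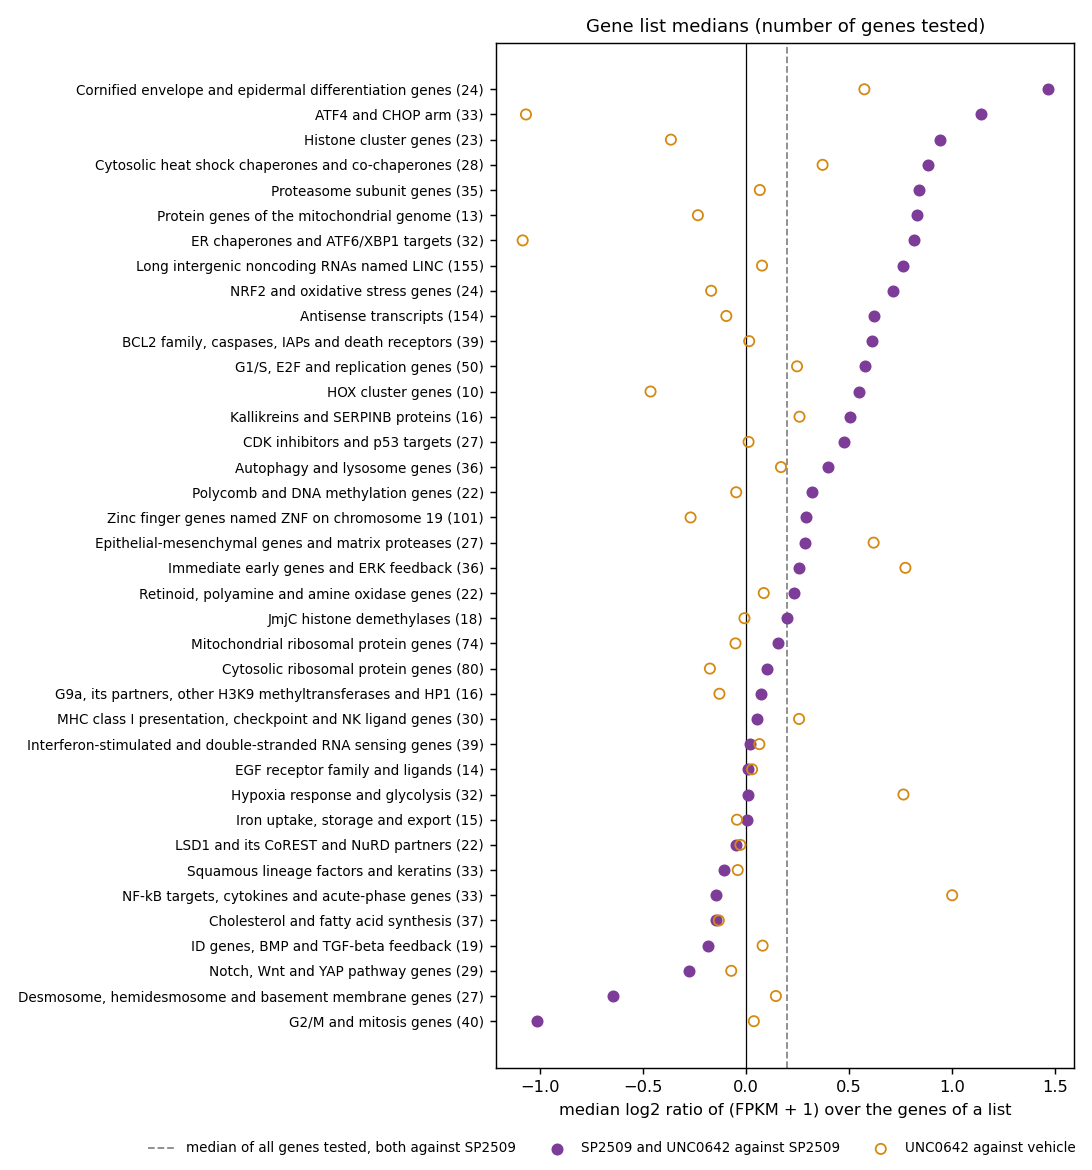
Median log2 ratio of (FPKM + 1) over the tested genes of each list, in rows ordered by the value for SP2509 and UNC0642 against SP2509 (filled), with the value for UNC0642 against vehicle (open) beside it. The dashed line is the median of all genes tested with both inhibitors against SP2509, 0.20, and the ER and ATF4 lists have filled points at 0.82 and 1.14 and open points at -1.08 and -1.07.

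Among protein-coding genes with at least 5 FPKM in either library, the 12 largest rises were SPRR2A, SBSN, IL11, LCE3D, CHAC1, HMOX1, IL36B, SPANXN3, FABP3, FCRLA, PPP1R10 and IL1RL1, with log2 fold changes from 5.59 to 3.69. PPP1R10, a nuclear subunit of protein phosphatase 1, was at 11.1 FPKM with vehicle, 20.8 with UNC0642, 0.862 with SP2509 and 23.3 with both inhibitors, and so was low with SP2509 only. IL1RL1, the receptor of interleukin 33, was at 0.0111 FPKM with vehicle, 0.574 with UNC0642, 0.557 with SP2509 and 19.1 with both inhibitors, and FABP3, a fatty acid binding protein, at 0.622 FPKM with vehicle, 2.34 with UNC0642, 0.766 with SP2509 and 23.6 with both inhibitors. SPANXN3 rested on 1 read with SP2509 and 145 with both. All of these but LCE3D and HMOX1 were below 1 FPKM in the SP2509 library.

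The 12 largest falls were CYP24A1, TCIM, GBP1, RIMKLB, ID3, DST, IL20, PLAC8, TGFB2, COL5A2, EDN1 and EEA1, with log2 fold changes from -4.48 to -3.04. CYP24A1 (chromosome 20, 54153449 to 54173973), the enzyme that inactivates vitamin D, was at 3.99 FPKM with vehicle, 4.32 with UNC0642, 59.1 with SP2509 and 1.69 with both inhibitors, with 4180 and 113 reads in the compared pair, a ratio of 0.0285 (95% counting interval 0.0234 to 0.0344). TCIM was at 13.3 FPKM with vehicle, 45.5 with UNC0642, 38.4 with SP2509 and 1.63 with both inhibitors, higher than vehicle with either inhibitor alone and lower with both. In the shG9a line CYP24A1 went from 9.7 to 0.0581 FPKM with Dox and TCIM from 40.9 to 1.06 FPKM. There DST and EDN1 also fell (log2 fold changes -1.52 and -1.77), whereas ID3 rose (1.48). Among the 12 largest rises, PPP1R10 rose with Dox (1.25), whereas CHAC1 fell (-2.865). The other genes of both groups that had a value were within 2-fold in that line. IL20, an epidermal cytokine, was at 0.326 FPKM with vehicle, 3.53 with UNC0642, 42.2 with SP2509 and 3.25 with both inhibitors, and EDN1, endothelin 1, at 5.75 FPKM with vehicle, 11.8 with UNC0642, 144 with SP2509 and 16.6 with both inhibitors. RIMKLB was at 10.4 FPKM with vehicle, 9.99 with UNC0642, 60.4 with SP2509 and 3.46 with both inhibitors. SP2509 alone held the highest level of the 4 in 11 of the 12 genes, which were chosen for their fall from it, TCIM being the exception.

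UNC0642 against vehicle shares no library with the comparison above, and 12101 genes were tested in both. Of 1934 genes that rose in the former setting, that is with SP2509 present, 234 (12.1%) also rose with UNC0642 alone, where 4.51% of these genes rose, and 80 (4.14%) fell, where 2.27% fell. The 234 genes were 42.9% of the 546 that rose with UNC0642 alone, while 16.0% of all 12101 genes rose with SP2509 present. Of 895 genes that fell with SP2509 present, 77 (8.60%) also fell with UNC0642 alone and 74 (8.27%) rose. The 77 genes were 28.0% of the 275 that fell with UNC0642 alone, while 7.40% of all 12101 genes fell with SP2509 present. The Dox-induced shG9a line, in which 5.13% of 13080 genes tested rose and 6.02% fell, shares no library with either. Over 11614 genes, 181 of 1812 rises (9.99%, background 4.09%) were shared with shG9a, which is 38.1% of its 475 rises (background 15.6%). Of 818 falls, 135 were shared (16.5%, background 5.95%), which is 19.5% of its 691 falls (background 7.04%). Opposite calls numbered 140 (7.73%) and 42 (5.13%). These are counts between single libraries and carry no test.

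Gene length and gene type moved with the direction of the calls. Among protein-coding genes up to 1000 bases long, 45.8% of 153 rose and 3.27% fell, with a median log2 fold change of 0.84. Of 2253 genes longer than 8000 bases 8.48% rose and 8.48% fell, with a median of -0.01, and the bins between had shares between these. The Spearman correlation of length with the log2 fold change was -0.163 across 10909 genes, which share the same pair of libraries. SPRR, LCE and histone genes are short, and CENPE, DST and TOP2A are long. The part of length in their values was not tested. Among long intergenic noncoding RNAs 190 of 488 rose and 29 fell, and among antisense RNAs 137 of 516 rose (26.6%) and 83 fell (16.1%). The sources used here do not say if counting took account of strand, so an antisense gene cannot be told apart from its partner. Of the genes named LINC 57 of 155 rose and 10 fell (median 0.76), and of those named as antisense 42 of 154 rose and 12 fell (median 0.62). Of the compared pair, 51 of the 57 LINC genes and 32 of the 42 antisense genes that rose passed the limit in the cotreated library and not with SP2509, so these had to differ. Among genes that passed in both libraries, 6 of 55 LINC genes rose and 7 fell, and 10 of 56 antisense genes rose and 5 fell.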

How the data were processed

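Kyse510 RNA was sequenced with paired-end 150-base reads. The authors removed low-quality reads, mapped the rest to GRCh38, and deposited FPKM values per gene. The aligner, the counting tool and the use of strand are not given in the sources used here. Reads per gene were recovered from the steps of the deposited FPKM values, using gene lengths of GENCODE release 44 where several lengths were possible. Intervals of read ratios are exact (Clopper-Pearson, 95%). A gene was tested with at least 1 FPKM in either library and called at a ratio of FPKM + 1 of at least 2, with no p-value, since each condition has 1 library. The procedure was tested on simulated data.

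Genes named were EHMT2 and KDM1A, the 12 largest rises and 12 largest falls among protein-coding genes of at least 5 FPKM, up to 4 rises and 4 falls in each of 42 lists, role genes of the lists whatever their change, and paralogs that moved together. A role gene that this rule names is not reported here. Some further list members are named, chosen after their values were seen. The members and lists were chosen with earlier results of these data known. Promoters (250 bases upstream) are from RefSeq. Alternatives were other pseudocounts, FPKM limits, folds and scalings. Python 3.11.15, numpy 2.4.6, pandas 2.3.3, scipy 1.17.1 and matplotlib 3.10.9 were used.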

Additional observations from a re-analysis of the deposited data

Results flagged for a closer look

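The effect of UNC0642 went in opposite directions with and without SP2509 for 3 gene lists and 37 named or list genes. In each case UNC0642 was compared with SP2509 as its base (both inhibitors against SP2509) and with vehicle as its base (UNC0642 against vehicle), with 1 library for each of the 4 conditions. Lists of at least 10 tested genes were taken where both medians were past a 1.3-fold change, and genes where both changes were past 2-fold. The difference was not tested in any of them, since no condition has a second library.

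The median log2 fold change of the ER chaperone and ATF6/XBP1 genes was 0.82 with SP2509 and -1.08 with vehicle as the base, and that of the ATF4 and CHOP genes was 1.14 and -1.07. HOX cluster genes had medians of 0.55 and -0.46 over 10 genes, but over the 3 that reached 5 FPKM the median with SP2509 as the base was -0.11, which is no longer opposite in sign to that over vehicle for the whole list.

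For each gene below, the log2 fold change over SP2509 stands first and that over vehicle second. Genes of the ER chaperone list higher over SP2509 and lower over vehicle were HYOU1 (1.29 and -1.35), DNAJB9 (1.73 and -2.54), DNAJB11 (1.25 and -1.02), SDF2L1 (1.17 and -2.72), MANF (1.13 and -1.24), CRELD2 (1.04 and -1.43), HERPUD1 (1.33 and -3.79), ERO1B (1.71 and -1.41) and ERN1 (1.22 and -1.07). In the ATF4 and CHOP list they were TRIB3 (2.28 and -2.55), CHAC1 (4.08 and -2.42), SESN2 (1.17 and -2.25), CEBPG (1.52 and -1.09), PSAT1 (3.17 and -2.01), PSPH (1.75 and -1.64), MTHFD2 (1.09 and -1.09), SLC7A11 (1.14 and -1.06), SLC7A1 (1.08 and -1.05), CTH (1.15 and -1.48), FGF21 (3.52 and -2.86), WARS (2.0 and -1.52), GARS (1.37 and -1.4) and AARS (1.55 and -1.65). The histone gene HIST1H2BO (1.31 and -1.15) went the same way.

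The opposite pattern, lower over SP2509 and higher over vehicle, was found for KRT17 (-2.64 and 1.31), THBS1 (-1.27 and 1.07), KLF6 (-1.6 and 1.14), CTGF (-2.49 and 1.74) and CYR61 (-2.05 and 1.67) among keratin, matrix and YAP target or immediate early genes. It was also found for the cytokine and NF-kB genes TNFAIP3 (-2.39 and 1.82), IL1A (-1.59 and 2.53), IL1B (-1.77 and 2.99), CXCL8 (-2.4 and 2.36), CCL20 (-1.91 and 1.71) and PTGS2 (-1.67 and 1.49), and for TCIM (-3.9 and 1.7) and IL20 (-3.34 and 1.77).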

How the results depend on the processing

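The counts of 2469 genes that rose and 1236 that fell depended on the thresholds. With a limit of 5 FPKM they were 1379 and 684, with a fold of 1.3 they were 5708 and 3392, with a fold of 4 they were 347 and 181, and with values rescaled to TPM they were 5006 and 2626 of 19054 genes tested. A pseudocount of 0.01 gave 1880 falls and 3618 rises, and protein-coding genes alone gave 666 falls and 1755 rises. More genes rose than fell under each of these settings. Centring on the median or scaling by a trimmed mean of the ratios lowered the share of calls that were rises from 66.6% to 57.5% and 58.3%.

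Of 227 named genes past 2-fold, 221 stayed past it in the same direction after centring, 219 after the trimmed mean and 226 as TPM. With a pseudocount of 0.1 all 227 stayed past it, which had to be so, since a smaller pseudocount can only widen a ratio. Among 251 alternative list medians, 241 moved by less than 0.38 (a fold of 1.3), 9 moved further and that of the HOX list turned from 0.55 to -0.11 with a limit of 5 FPKM, which leaves 3 genes. Part of the 241 was fixed in advance. The 1.3-fold limit changes calls and not medians, and centring moves every median by 0.12. Counting medians near 0 as well, 23 alternatives over 11 lists changed sign, HOX included. With a limit of 5 FPKM the zinc finger list went from 0.29 to -0.14 and the metallothioneins from -0.08 to 0.43, and as TPM the protocadherins went from 0.28 to -0.54. The others (H3K9 enzymes, EGFR, interferon, MHC, hypoxia, iron and ribosomal protein genes) had medians between 0.01 and 0.10, and all but the MHC list changed sign only when rescaled or centred.

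No paired analysis was possible because each condition has 1 library. A left-out library leaves no comparison. Depth limits genes with few reads in the SP2509 library, such as SPANXN3, FGF21, MMP3, ARC and RSAD2, whose ratios have wide counting intervals. Differences between cultures, batches or days cannot be told apart from the treatment.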
